A study of Mus musculus with 12 samples.

Results

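The set of 9 genes described here covers the core of the mitochondrial cell death pathway: the survival proteins Bcl2, Bcl2l1 and Mcl1, the pore-forming effectors Bax and Bak1, the BH3-only proteins Bbc3 and Pmaip1, and the caspase activators Casp9 and Apaf1. Members were chosen by gene symbol, and every probe set that named one of these genes alone was taken. This gave 24 probe sets of 8 genes, out of 34945 single-gene probe sets of 18193 genes on the array. No single-gene probe set was found for Bax in the annotation used, and Bax was not analysed here. Messenger RNA came from neural tubes, from which the central nervous system forms, taken from embryos of untreated ICR (CD-1) mice, an outbred stock, at gestation days 8.5, 9.0 and 9.5 (GD8.5, GD9.0 and GD9.5, counted from GD 0 as the plug date). Each stage had 4 replicates named as biological, and 100 ng of RNA of each was labelled for an Affymetrix mouse genome array. The labels do not say whether a replicate was a litter, a pool or an embryo, so p-values measure the spread between these samples.

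In this pathway, survival members of the Bcl2 family bind and hold back Bax and Bak1 at the mitochondrial outer membrane. BH3-only proteins occupy the survival members or engage the effectors directly, the membrane opens, cytochrome c leaves the mitochondrion, and Apaf1 assembles with it into the apoptosome that activates caspase 9. Cell death by this route shapes the neural tube, and mice that lack Apaf1 or Casp9 are known for excess cells and malformation of the embryonic brain.

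Deposited values were log2 signals for 10 arrays (2 at GD8.5, replicates 3 and 4, then 4 per later stage) and linear intensities for GD8.5 replicates 1 and 2, which were left out of the main comparisons. The number of arrays, 2 at GD8.5 in particular, limits the precision. A level of 1.42, under which 95% of 39 olfactory receptor genes lay, served as the background, and 21 of the 24 probe sets had a mean above it. All 8 neural progenitor markers lay above the background at every stage, and their mean log2 level was 5.42 ± 0.05 (SD, n = 2), 6.01 ± 0.04 (n = 4) and 6.85 ± 0.06 (n = 4). Cells other than neural ones contributed RNA to differing degrees. The list of 6 cardiac muscle markers went from 6.50 to 3.66 and 1.53, that of 6 endoderm and yolk sac markers from 7.19 to 4.22 and 1.75, and that of 7 primitive erythroid markers from 5.26 to 6.51 and 7.21. In such bulk samples, fewer cells of a type and less RNA per cell cannot be told apart.

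Bcl2 rose in both intervals, by 1.63- and 1.54-fold. Pmaip1 fell 1.39-fold from GD8.5 to GD9.0 and then rose 1.51-fold. Mcl1, Bak1, Bbc3 and Casp9 rose by 1.17- to 1.24-fold between GD9.0 and GD9.5, while Bcl2l1 and Apaf1 passed in no comparison on their brightest probe sets. Each gene was represented in counts by its brightest probe set and called at an adjusted p under 0.05 (limma with Benjamini-Hochberg adjustment over all single-gene probe sets). From GD8.5 to GD9.0, 1 of 8 measured genes rose and 1 fell, where 12% of all genes were called (5.97% higher and 6.02% lower). From GD9.0 to GD9.5, 6 of 8 rose and 0 fell, where 22.7% of all genes were called (13.3% higher and 9.44% lower). With all 12 arrays, which had to be normalised anew onto 1 log2 distribution, 1 of the 8 (Bcl2) was called in this interval. The log2 changes of the other 5 were then 0.24 ± 0.08 for Mcl1, 0.28 ± 0.15 for Bak1, 0.28 ± 0.15 for Bbc3, 0.52 ± 0.15 for Pmaip1 and 0.21 ± 0.14 for Casp9 (adjusted p from 0.054 to 0.503). The 2 added arrays are of GD8.5 and enter this interval only through the normalisation and the shared spread. Calls fell over the whole array too, to 1776 probe sets higher and 1593 lower, against 3913 and 3229 with 10 arrays. The median log2 change of the 8 genes was 0.28 in this interval, against -0.0077 over all genes. Over the full day 2 of 8 rose and 0 fell, where 26.8% of all genes were called (14.7% higher and 12.2% lower). At an unadjusted p under 0.05, 2, 6 and 3 of the 8 genes passed in the 3 comparisons, in either direction. Of 52 other apoptosis genes measured, 10, 26 and 20 passed at this level. The share over all genes at this level was not counted. The comparisons share stages, so their values are not independent.

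Counted over all 24 probe sets, 1 was higher and 1 lower in the first interval, where 10.1% of all probe sets were called (5.42% higher and 4.66% lower). In the second interval 12 were higher and 0 lower, where 20.4% were called (11.2% higher and 9.24% lower). Over the full day 5 were higher and 0 lower, where 23.2% were called (12.7% higher and 10.5% lower). A test of the second change minus the first was higher for 6 probe sets and lower for 0, where 9.24% were called (5.02% higher and 4.22% lower). Mcl1 alone supplied 5 of these 6, and 6 of the 12 that were higher in the second interval. Probe sets of 1 gene are not separate members, so these counts cannot be read as counts of genes. By gene, 1 of 8 (Pmaip1) passed the test of the second change minus the first.

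**Figure D1:**
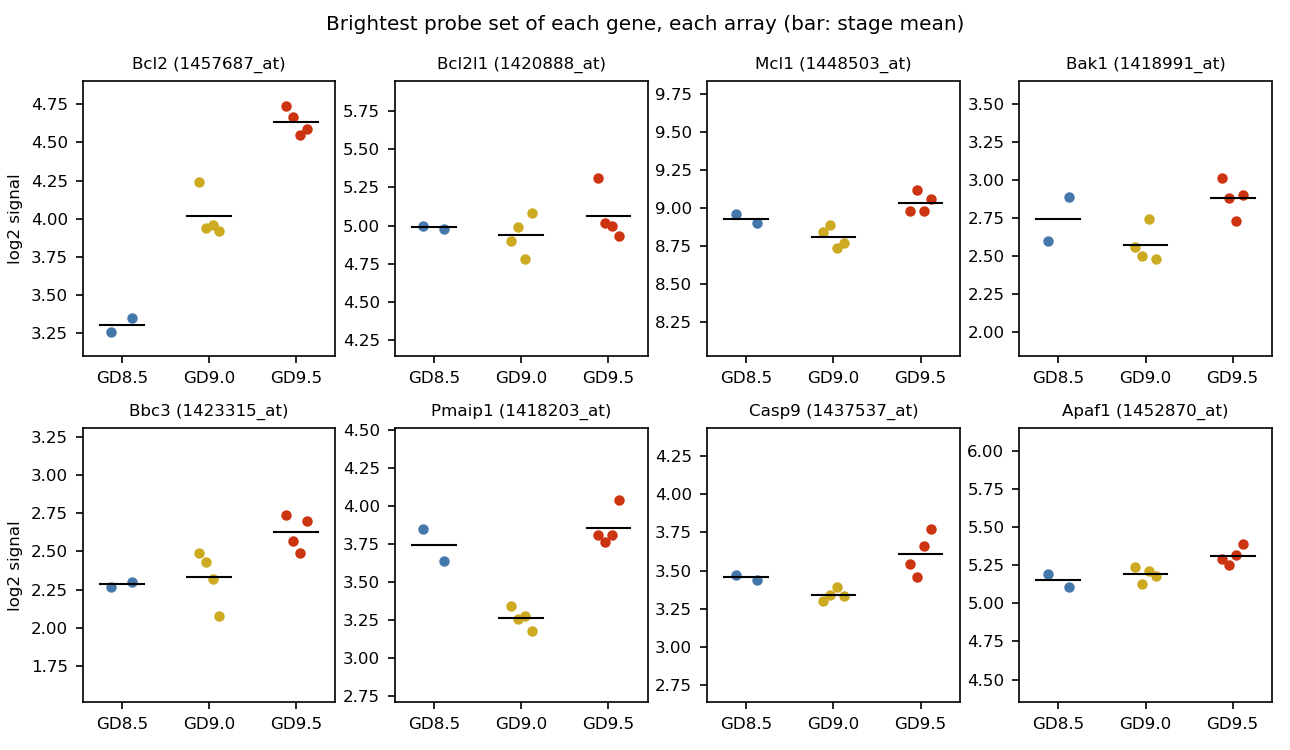
Log2 signal of the brightest probe set of each of the 8 measured genes in each of 10 arrays, by stage, with the stage mean as a bar; every panel spans 1.8 log2 units around its own centre. Bcl2 steps up at each stage, from about 3.31 to 4.02 and 4.64, and Pmaip1 is lowest at GD9.0, with a mean of 3.27.

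The proximal promoters of 3 genes that rose from GD9.0 to GD9.5 are shown because they differ in the one element that most windows of the set hold. Each is the 250 bases before a RefSeq transcript start (build GRCm38.p6), written 5′ to 3′ on the strand of the gene, with every GC box (GGGCGG, or CCGCCC where it lies on the other strand) in capitals. The windows are chr1:106714291-106714540 on the minus strand for Bcl2, chr3:95658471-95658720 on the plus strand for Mcl1, and chr4:141793362-141793611 on the plus strand for Casp9.
Bcl2: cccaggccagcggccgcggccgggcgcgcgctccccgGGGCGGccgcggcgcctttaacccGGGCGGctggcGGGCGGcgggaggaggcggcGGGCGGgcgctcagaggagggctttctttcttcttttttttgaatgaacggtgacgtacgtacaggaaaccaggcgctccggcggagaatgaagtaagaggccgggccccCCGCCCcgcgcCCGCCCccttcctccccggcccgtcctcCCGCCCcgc
Mcl1: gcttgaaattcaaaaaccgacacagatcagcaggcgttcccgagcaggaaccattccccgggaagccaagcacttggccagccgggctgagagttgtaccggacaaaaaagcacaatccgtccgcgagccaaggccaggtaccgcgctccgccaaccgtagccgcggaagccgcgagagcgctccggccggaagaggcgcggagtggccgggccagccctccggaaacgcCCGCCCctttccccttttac
Casp9: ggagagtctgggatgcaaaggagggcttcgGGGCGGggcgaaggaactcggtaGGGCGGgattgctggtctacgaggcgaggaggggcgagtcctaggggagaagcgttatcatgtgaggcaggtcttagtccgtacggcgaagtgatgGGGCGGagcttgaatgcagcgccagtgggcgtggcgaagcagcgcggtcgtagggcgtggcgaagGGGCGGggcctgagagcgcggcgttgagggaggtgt
The Bcl2 window held 7 GC boxes, that of Casp9 4 and that of Mcl1 1. A GC box was present in 32.7% of the 32851 promoter windows of this length. RefSeq windows were found for 8 of the 9 genes, Bax included, 12 windows in all. The 3 windows of Bcl2l1 and that of Bak1 held no GC box, and those of Apaf1 and Bax held 2 each. The windows of Bbc3, which overlap in part, held 5, 1 and 7. The share of G and C was 74.8% in the Bcl2 window, 66% in that of Casp9 and 64.4% in that of Mcl1. The median over all windows was 52.4%. No window of the set held a TATA box (TATAAA), which 12.4% of all windows held. A p53 half-site, the 10-base consensus of a tumour suppressor that drives several genes of this pathway, matched in the Bax window and in no other window of the set, against 7.13% of all windows. These matches describe letters and were not tested for binding.

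Bcl2, the founding survival protein of the family, showed the widest movement of the set. Its brightest probe set (1457687_at) read 3.26 and 3.35 in the GD8.5 arrays. At GD9.0 it read 4.24, 3.94, 3.96 and 3.92, and at GD9.5 it read 4.74, 4.67, 4.55 and 4.59. The 3 stages did not overlap, and every array of a later stage was above every array of an earlier one. The log2 change was 0.71 ± 0.10 (SE, n = 4 against 2) from GD8.5 to GD9.0, a 1.63-fold rise (adjusted p = 0.00063). It was 0.62 ± 0.08 (n = 4 against 4) from GD9.0 to GD9.5, a 1.54-fold rise (adjusted p = 0.000195). Over the day Bcl2 rose 2.51-fold (1.33 ± 0.10, adjusted p = 1.3e-06). The 2 steps did not differ detectably, with a difference of second minus first interval of -0.08 (95% interval -0.41 to 0.24).

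The other 4 probe sets of Bcl2 lay nearer the background, with means from 1.70 to 2.35, and they did not all follow. Probe set 1440770_at rose in the second interval by 0.30 ± 0.06 (adjusted p = 0.0029), from 1.61, 1.56, 1.58 and 1.56 to 1.87, 1.91, 1.92 and 1.79, a call that was lost with all 12 arrays (0.36 ± 0.24, adjusted p = 0.508). Probe set 1437122_at passed only over the full day (0.43 ± 0.14, adjusted p = 0.0417), and this call was lost without GD8.5 replicates 3 or 4, GD9.0 replicate 3 or GD9.5 replicates 2, 3 or 4 (adjusted p from 0.055 to 0.257). The full-day rise of 1440770_at (0.27 ± 0.07, adjusted p = 0.0144) was lost without GD8.5 replicate 3 (0.19, adjusted p = 0.175) and with all 12 arrays (0.01, adjusted p = 0.988). The remaining pair, 1422938_at and 1443837_x_at, passed in no comparison, at -0.03 ± 0.12 and 0.19 ± 0.11 over the day. In all, 3 of 5 Bcl2 probe sets were higher at GD9.5 than at GD8.5 and 0 were lower, where 12.7% of all probe sets were higher. Averaged over all 5 probe sets, the full-day change of Bcl2 was 0.44. The 6 young neuron markers moved in the same direction as Bcl2, with list means of 2.73 (range 2.72 to 2.74 over arrays), 3.15 (3.11 to 3.21) and 5.20 (5.13 to 5.28) at the 3 stages. Of these 6 markers, 2 lay at or under the background in the earliest stage, 1 in the middle one and 0 in the last. The 7 primitive erythroid markers, all above the background, also rose with stage, with ranges of 5.16 to 5.37, 6.47 to 6.55 and 7.14 to 7.29. The 8 neural progenitor markers rose as well, with list means of 5.42, 6.01 and 6.85. The cardiac muscle, endoderm and yolk sac, surface ectoderm and endothelium lists fell at each step. The part of any of these cell types in the Bcl2 values was not tested.

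Bcl2l1, whose long product Bcl-xL protects young neurons and erythroid cells, passed in none of the comparisons. Its brightest probe set (1420888_at) read 5.0 and 4.98 in the GD8.5 arrays. The GD9.0 arrays read 4.90, 4.99, 4.78 and 5.08, and the GD9.5 arrays 5.31, 5.02, 5.0 and 4.93. The stages overlapped throughout. The full-day change was 0.07 ± 0.11 with a 95% interval from -0.17 to 0.31, so a rise of the size seen for Bcl2 lay outside it. Its second probe set in brightness, 1420887_a_at, had a mean of 1.47, and the other two had means of 1.36 and 1.13, under the background, so no fold is given for them.

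Mcl1, a survival protein with a short life in the cell, had probe sets that moved closely together. Log2 differences of GD9.0 from GD8.5 were -0.12 to -0.21 in all 6 of its probe sets, but none passed the main test (lowest adjusted p = 0.0738). With all 12 arrays the falls of 1456243_x_at (-0.35, adjusted p = 0.0401) and 1456381_x_at (-0.33, adjusted p = 0.0218) passed. Under an intensity trend with robust prior these and 1437527_x_at passed (adjusted p from 0.0077 to 0.0494). With brighter probe sets only, 1456381_x_at passed (adjusted p = 0.0375). All 6 probe sets then rose in the second interval by 0.20 to 0.31 (adjusted p from 0.0026 to 0.0178), where 11.2% of all probe sets were higher. With all 12 arrays 3 of these 6 calls were lost, that of the brightest probe set among them, at 0.19 to 0.31 (adjusted p from 0.0698 to 0.0885). Probe sets of 1 gene are not separate evidence.

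The brightest, 1448503_at, read 8.96 and 8.90 in the GD8.5 arrays. The GD9.0 arrays read 8.84, 8.89, 8.74 and 8.77, and the GD9.5 arrays 8.98, 9.12, 8.98 and 9.06. Its rise to GD9.5 was 1.17-fold (0.23 ± 0.06), and the GD9.0 arrays lay narrowly under all the others. The change from the first to the second interval differed in 5 of 6 probe sets, by 0.35 to 0.49, where 5.02% of all probe sets had a larger second change. The brightest was the exception at 0.35 ± 0.11 (adjusted p = 0.0776). With the replicate block 4 of these 5 calls were lost, at 0.35 to 0.45 (adjusted p from 0.0618 to 0.0927). Each of the 5 was also lost on leaving out GD8.5 replicate 3 (0.33 to 0.44, adjusted p from 0.0527 to 0.14). Over the full day no Mcl1 probe set passed, with changes from 0.06 to 0.14. Without GD9.5 replicate 2 the rise of the brightest probe set from GD9.0 was 0.20 (adjusted p = 0.0504).

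**Figure D2:**
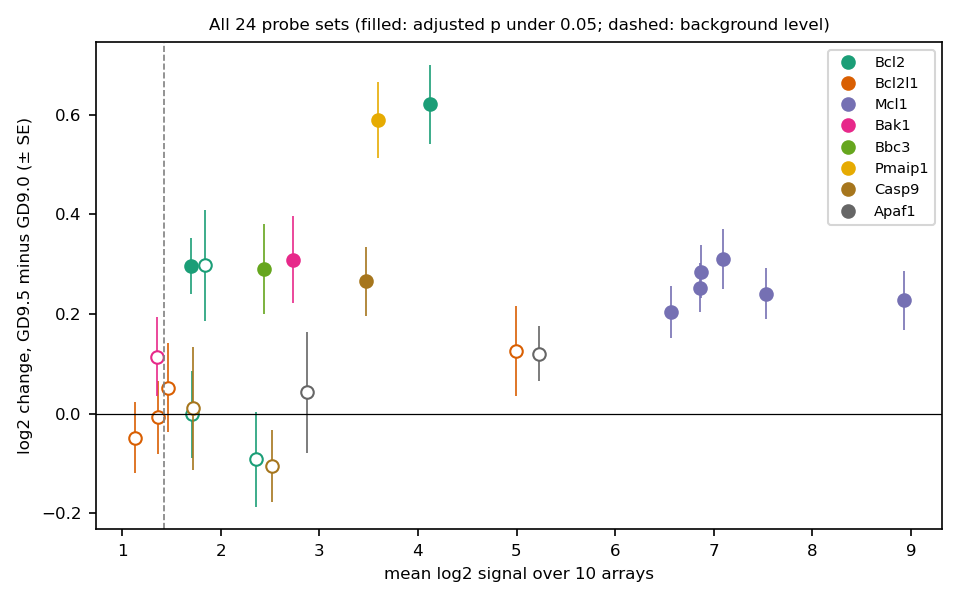
Log2 change from GD9.0 to GD9.5, with its standard error, of all 24 probe sets against their mean log2 signal over 10 arrays; colours mark genes, filled points passed the test and the dashed line is the background of 1.42. All 6 Mcl1 probe sets lie between 0.20 and 0.31, while those of Bcl2 spread from -0.09 to 0.62.

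Bak1, the measured effector, which forms pores in the outer membrane when freed, had a low signal. Its brighter probe set (1418991_at) read 2.60 and 2.89 in the GD8.5 arrays. The GD9.0 arrays read 2.56, 2.50, 2.74 and 2.48, and the GD9.5 arrays 3.01, 2.88, 2.73 and 2.90. The arrays of GD9.0 and GD9.5 overlapped slightly, since the highest of the former was above the lowest of the latter. Between GD9.0 and GD9.5 Bak1 rose by 0.31 ± 0.09 (1.24-fold, adjusted p = 0.0274). The call was lost on leaving out any 1 of 6 of the 8 arrays of those stages (all but GD9.0 replicate 3 and GD9.5 replicate 3; adjusted p from 0.0561 to 0.0789), with all 12 arrays (adjusted p = 0.352), and with the replicate number as a block (adjusted p = 0.0617). Its other probe set had a mean of 1.35, under the background.

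Of the 2 BH3-only members, Bbc3 encodes Puma, a killer protein that binds all the main survival members. Its only probe set (1423315_at) read 2.27 and 2.30 in the GD8.5 arrays. The GD9.0 arrays read 2.49, 2.43, 2.32 and 2.08, and the GD9.5 arrays 2.74, 2.57, 2.49 and 2.70. The GD8.5 and GD9.0 arrays overlapped, and the lowest GD9.5 array was level with the highest at GD9.0. Bbc3 rose between those stages by 0.29 ± 0.09 (1.22-fold, adjusted p = 0.0422) and over the day by 0.34 ± 0.11 (1.27-fold, adjusted p = 0.0466). Both calls lay close to the threshold, and each was lost in 10 of 21 alternative settings, 7 of which for either call left out 1 array. For the second interval these were both GD8.5 arrays, GD9.0 replicates 3 and 4 and GD9.5 replicates 1, 2 and 4 (adjusted p from 0.0566 to 0.111). For the full day they were both GD8.5 arrays, GD9.0 replicates 2 and 3 and GD9.5 replicates 1, 2 and 4 (adjusted p from 0.0539 to 0.193), and the replicate block gave 0.26 (adjusted p = 0.154).

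Pmaip1 encodes Noxa, a BH3-only protein that binds chiefly Mcl1 and promotes its breakdown. Its only probe set (1418203_at) read 3.85 and 3.64 at GD8.5. It read 3.34, 3.26, 3.28 and 3.18 at GD9.0 and 3.81, 3.76, 3.81 and 4.04 at GD9.5. All 4 GD9.0 arrays lay under all arrays of the other stages, and GD8.5 and GD9.5 overlapped.

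In the first interval Pmaip1 fell 1.39-fold (-0.48 ± 0.09, adjusted p = 0.0062) and then rose 1.51-fold (0.59 ± 0.08, adjusted p = 0.000199). The 2 changes differed by 1.07 ± 0.14 (adjusted p = 0.00081), where 10.3% of all genes had a called difference between intervals (6.37% higher and 3.9% lower). Pmaip1 was the only one of the 8 genes whose brightest probe set passed this test. Over the full day the change was 0.11 ± 0.09 and did not pass. The GD8.5 mean rests on 2 arrays, and without GD8.5 replicate 3 the first change was -0.37 (adjusted p = 0.0999). With all 12 arrays the first change was -0.81 ± 0.15 (adjusted p = 0.0066), and the full-day change was -0.28 ± 0.15 (adjusted p = 0.213), opposite in sign to that from 10 arrays.

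Measures of RNA and of decidual tissue were also lowest at GD9.0, the stage from which 6 of the 8 genes rose. Probe sets for 18S ribosomal RNA, which the array carries as controls, had stage means of 9.82 ± 0.01 (SD, n = 2), 8.81 ± 0.18 (n = 4) and 10.3 ± 0.09 (n = 4). Actin control signals at the 3′ end exceeded those at the 5′ end by 0.71, 0.56 and 0.93, a measure of RNA length in which a smaller difference means longer RNA. For the Gapdh control the same difference was near 0 at every stage (0.04, -0.001 and 0.05). Prl8a2, a decidual hormone, was at 9.47, 4.52 and 5.64. The means of Pmaip1, Mcl1, Bak1 and Casp9 were lowest at this stage, and the part of these measures in any of the 6 rises was not tested.

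**Figure D3:**
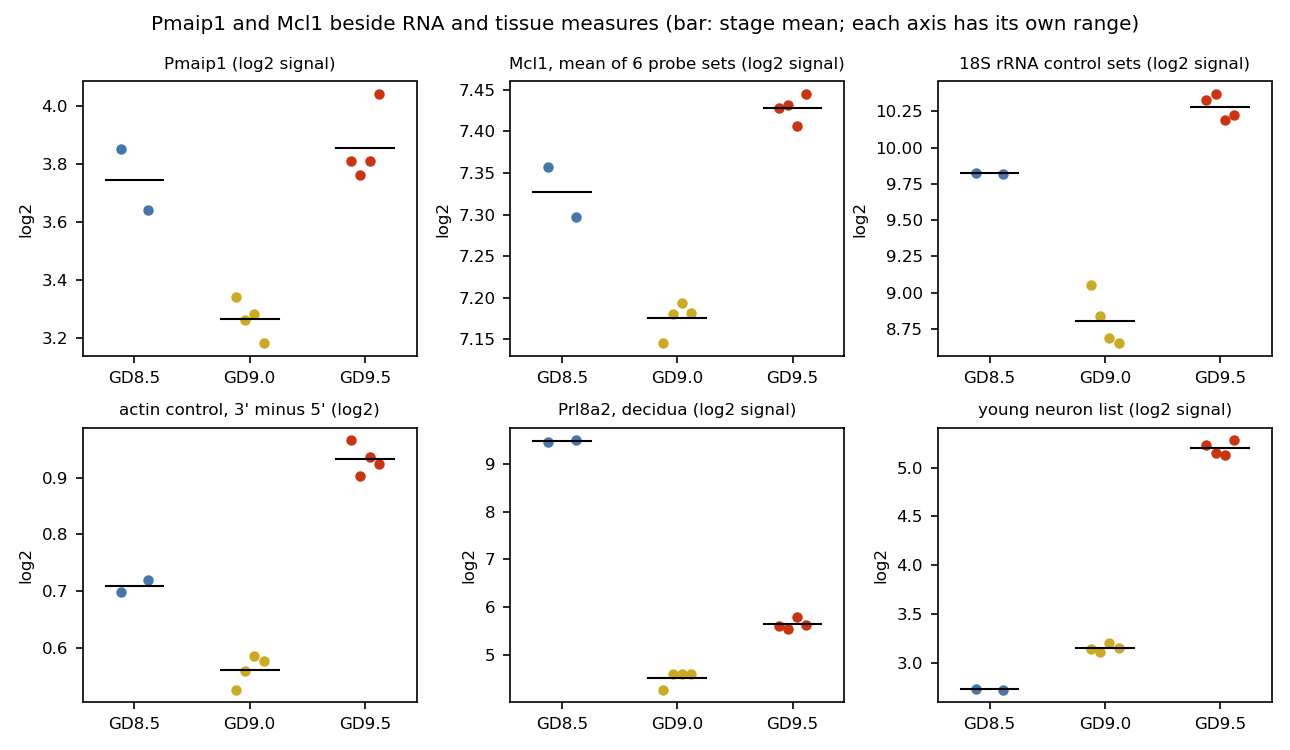
Log2 values per array by stage, with stage means as bars, for Pmaip1, the mean of the 6 Mcl1 probe sets, the 18S control probe sets, the actin 3′ minus 5′ difference, Prl8a2 and the young neuron list; each axis has its own range. The GD9.0 arrays are the lowest in the first 5 panels, with Mcl1 means of 7.15 to 7.19 against 7.30 to 7.36 at GD8.5 and 7.41 to 7.45 at GD9.5, and the young neuron list climbs through the stages.

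Casp9, the initiator caspase of the apoptosome, read 3.47 and 3.44 in the GD8.5 arrays on its brightest probe set (1437537_at). The GD9.0 arrays read 3.30, 3.34, 3.39 and 3.33, and the GD9.5 arrays 3.54, 3.46, 3.66 and 3.77. The GD9.5 arrays lay above all GD9.0 arrays and overlapped with GD8.5. Between GD9.0 and GD9.5 Casp9 rose by 0.27 ± 0.07 (1.2-fold, adjusted p = 0.0183). Its 2 dimmer probe sets did not follow, at -0.11 ± 0.07 and 0.01 ± 0.12, and the mean of its 3 probe sets gave 0.06 (adjusted p = 0.594). Over the full day Casp9 did not pass on any probe set.

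Apaf1, the scaffold on which caspase 9 is activated, read 5.19 and 5.11 in the GD8.5 arrays on its brightest probe set (1452870_at). The GD9.0 arrays read 5.24, 5.13, 5.21 and 5.18, and the GD9.5 arrays 5.29, 5.25, 5.32 and 5.39. The GD9.5 arrays were the highest, by a small margin. No comparison passed, with a full-day change of 0.16 ± 0.07 (95% interval 0.01 to 0.31, adjusted p = 0.125). The second probe set (1450223_at) was higher at GD9.5 than at GD8.5 by 0.51 ± 0.15 (adjusted p = 0.0294). It read 2.54 and 2.43 in the GD8.5 arrays, 2.55, 3.16, 3.07 and 3.03 in the GD9.0 arrays and 2.81, 2.97, 3.15 and 3.05 in the GD9.5 arrays. GD9.0 replicate 1 was level with GD8.5, and the other GD9.0 arrays lay among those of GD9.5. Its first change was 0.46 ± 0.15 (adjusted p = 0.0789), which passed without GD9.0 replicate 1 (0.60, adjusted p = 0.0037) and with the replicate block (0.56, adjusted p = 0.014). The full-day call was lost with all 12 arrays (0.37, adjusted p = 0.112). It was also lost without either GD8.5 array or GD9.5 replicates 2, 3 or 4 (adjusted p from 0.0509 to 0.181). The mean of both probe sets also passed over the full day (0.33 ± 0.08, adjusted p = 0.0104).

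**Figure D4:**
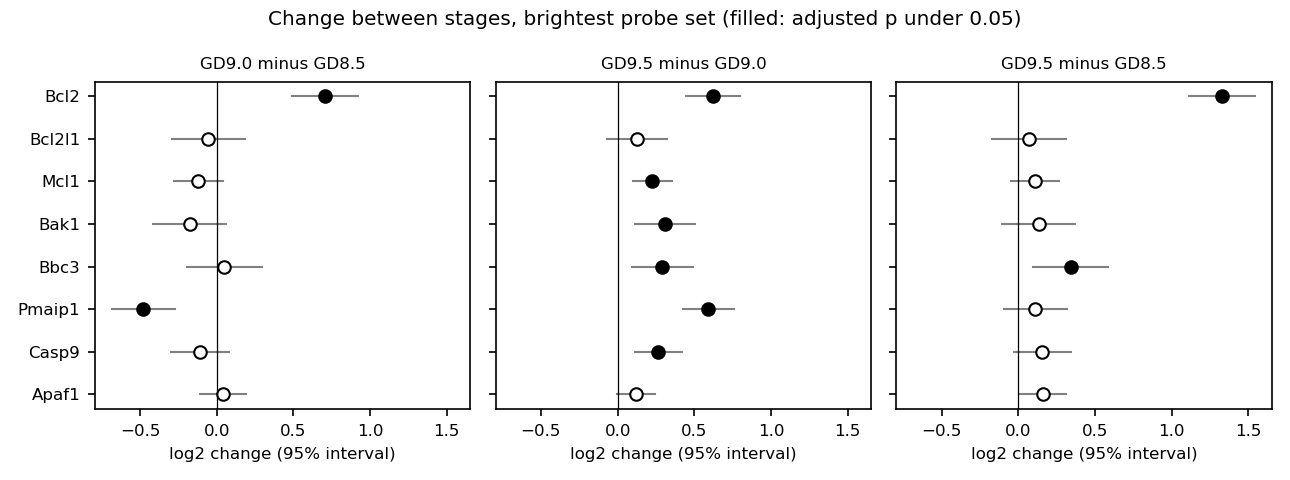
Log2 change of the brightest probe set of each of the 8 genes in 3 comparisons, with its 95% interval from the limma fit; filled points had an adjusted p under 0.05. Bcl2 stands apart over the full day at 1.33, and the second interval holds 6 filled points, all above 0.

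From GD9.0 to GD9.5 the 6 genes that rose comprised 2 of 3 survival members, the 1 measured effector, 2 of 2 BH3-only members and 1 of 2 apoptosome members, where 13.3% of all genes were higher. Of these 6 calls, all but that of Bcl2 were lost with 12 arrays. The rises of the pro-death members were 0.27 for Casp9, 0.29 for Bbc3, 0.31 for Bak1 and 0.59 for Pmaip1. Those of the survival members were 0.23 for Mcl1 and 0.62 for Bcl2.

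The genes most like each called member in profile were found over the 10 arrays by the root mean square distance between centred log2 values, among 13017 other genes above the background. Nearest to Mcl1 were Chsy1 (0.027), Lgr4 (0.043) and Cdc73 (0.044). Nearest to Pmaip1 were Btbd9 (0.089), Fkbp2 (0.091) and Slc38a10 (0.091). Nearest to Bak1 were Setd1b (0.089), Eif4ebp2 (0.089) and Pard3 (0.092), nearest to Bbc3 Prkar2b (0.062), Nsun3 (0.074) and Ergic1 (0.077), and nearest to Casp9 Cul3 (0.051), Ric8a (0.055) and Poli (0.057). Nearest to Bcl2 were Gpx8 (0.10), Elavl2 (0.10) and Lum (0.11), with a Pearson correlation of 0.98 each. The 10 arrays share only 3 stages, so such profiles describe stage means in the main.

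A wider list of the pathway, with 60 of 65 genes measured, placed the set among its partners. The remaining genes of the list were not analysed here. Of the 52 measured genes outside the set, 4 rose and 1 fell from GD8.5 to GD9.0, 8 rose and 5 fell from GD9.0 to GD9.5, and 11 rose and 4 fell over the day. These shares, 9.62%, 25% and 28.8%, were near those of all genes (12%, 22.7% and 26.8%). Their median log2 changes were 0.0012, -0.015 and -0.021, against -0.0019, -0.0077 and -0.016 over all genes.

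Among other Bcl2 family genes, the survival member Bcl2l2 (-0.20 ± 0.11 over the full day) and the effector Bok (0.01 ± 0.07) passed in no comparison, and Bcl2l10 lay under the background. Of the 6 further BH3-only genes, Bad and Bmf passed on their brightest probe sets, in opposite directions. On dimmer ones, 1 of 5 Bcl2l11 probe sets was lower in the second interval and 2 over the full day. In Bid 1 of 3 was higher in the first interval, 1 lower in the second and 1 lower over the full day. Bad, which is silenced by growth factor signals, rose from 4.27, 4.29, 4.20 and 4.14 at GD9.0 to 4.67, 4.42, 4.64 and 4.64 at GD9.5 (0.37 ± 0.07, adjusted p = 0.0024, 1 of 2 probe sets). Bmf, a sensor of cell detachment, fell from 5.60, 5.72, 5.99 and 5.95 to 5.43, 5.08, 5.43 and 5.28 (-0.51 ± 0.10, adjusted p = 0.0037, 1 of 3 probe sets). In both genes the arrays of the 2 stages did not overlap.

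Among 3 other caspases downstream or apart from the apoptosome, Casp2 and Casp6 rose and Casp12 lay under the background. Casp2, a caspase tied to genome stress, rose in both intervals, from 6.15 and 6.15 to 6.58, 6.61, 6.63 and 6.49 and then 6.87, 6.93, 6.97 and 6.89. Its full-day rise was 1.70-fold (0.76 ± 0.07, adjusted p = 5.8e-06). Casp6, an executioner, rose in the second interval by 0.34 ± 0.07 (adjusted p = 0.0032, 1 of 2 probe sets).

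Casp8, the initiator of the death receptor arm, stood at 4.80 and 4.27 at GD8.5 and at 4.70, 4.47, 4.44 and 4.46 at GD9.0, then fell to 3.76, 3.52, 3.24 and 3.38. This was a 2.06-fold fall from GD9.0 (-1.04 ± 0.13, adjusted p = 0.00016, 1 probe set). Casp8 also changed differently in the 2 intervals (second minus first -1.03 ± 0.24, adjusted p = 0.0224). Over the second interval the 4 surface ectoderm markers, all above the background, went from a mean of 6.02 (5.96 to 6.08) to 5.21 (5.13 to 5.30). Over the first interval the same markers went from 7.07 (7.05 to 7.08) to 6.02, while the change of Casp8 was -0.02 ± 0.16 and did not pass. Other lists fell in the second interval too. The cardiac muscle list went from 3.66 to 1.53, and the endoderm and yolk sac list from 4.22 to 1.75. Both also fell in the first interval, while the neural progenitor, young neuron and primitive erythroid lists rose in both intervals. The part of any of these lists in the Casp8 values was not tested. Cflar, the decoy that blocks caspase 8, was the other death receptor gene of 7 measured to pass, higher over the full day (0.40 ± 0.12, adjusted p = 0.0389, 1 of 5 probe sets).

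Of the 16 measured genes in the p53 group, 5 rose and 2 fell over the full day, where 14.7% of all genes were higher and 12.2% lower. Ccng1, a cyclin induced by p53, rose by 0.53 ± 0.09 in this comparison, with all 3 of its probe sets called, and Sesn1, a stress-induced gene, by 0.37 ± 0.10 (3 of 4 probe sets). Mdm4, an inhibitor of p53, rose over the day (0.24 ± 0.07, adjusted p = 0.0278) and in the first interval (0.28 ± 0.07, adjusted p = 0.0237), in 1 of 4 probe sets. Trp63, a p53 relative of surface epithelium, rose from 1.39 and 1.48, near the background, to 2.63, 2.70, 2.38 and 2.54 (1.13 ± 0.10, 1 of 4 probe sets). The 4 surface ectoderm markers fell over the same day, from a mean of 7.07 to 5.21. Trp53inp1, a p53-induced nuclear protein, rose by 0.64 ± 0.07 (adjusted p = 5.2e-05, 1 of 2 probe sets). The stress genes Gadd45a and Sesn2 fell, by 0.95 and 0.30 on the log2 scale, and Gadd45a did so in the first interval (-0.79 ± 0.12, adjusted p = 0.0014). In that interval 3 of the 16 rose and 1 fell, where 5.97% of all genes were higher and 6.02% lower. Besides Mdm4, the rises were those of Trp63 (0.90 ± 0.10, adjusted p = 8.3e-05) and Trp53inp1 (0.48 ± 0.07, adjusted p = 0.0012).

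In the second interval 3 of the 16 rose and 2 fell, where 13.3% of all genes were higher and 9.44% lower. The rises were those of Sesn1 (0.32 ± 0.08, adjusted p = 0.015), Ccng1 (0.24 ± 0.07, adjusted p = 0.033) and Zmat3 (0.20 ± 0.06, adjusted p = 0.0256). The falls were those of Mdm2, which marks p53 for breakdown (-0.32 ± 0.07, adjusted p = 0.009), and Eda2r, a receptor of the tumour necrosis factor family (-0.28 ± 0.08, adjusted p = 0.0308). Bbc3 and Pmaip1, counted here under BH3-only genes, are known targets of p53 too.

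On their brightest probe sets, the called genes of the remaining groups were Endog, Birc2 and Dffa. Endog, a mitochondrial nuclease, rose in the second interval by 0.54 ± 0.07 (adjusted p = 0.0003, 1 of 2 probe sets). In the same group and interval, 2 of 5 Vdac1 probe sets were lower and 1 of 7 of Mtch2 was higher. Birc2, an inhibitor of apoptosis, rose by 0.20 ± 0.06 in the second interval (adjusted p = 0.0488). It was the 1 gene of 7 in its group to pass on the brightest probe set. Dimmer probe sets of that group fell. In Birc6 3 of 6 were lower in the second interval and 2 over the full day, and in Xiap 1 of 7 was lower over the full day. Dffa, the inhibitor of the nuclease that cuts DNA in dying cells, fell by 0.20 on the log2 scale in the second interval (adjusted p = 0.0247, 1 of 2 probe sets).

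**Figure D5:**
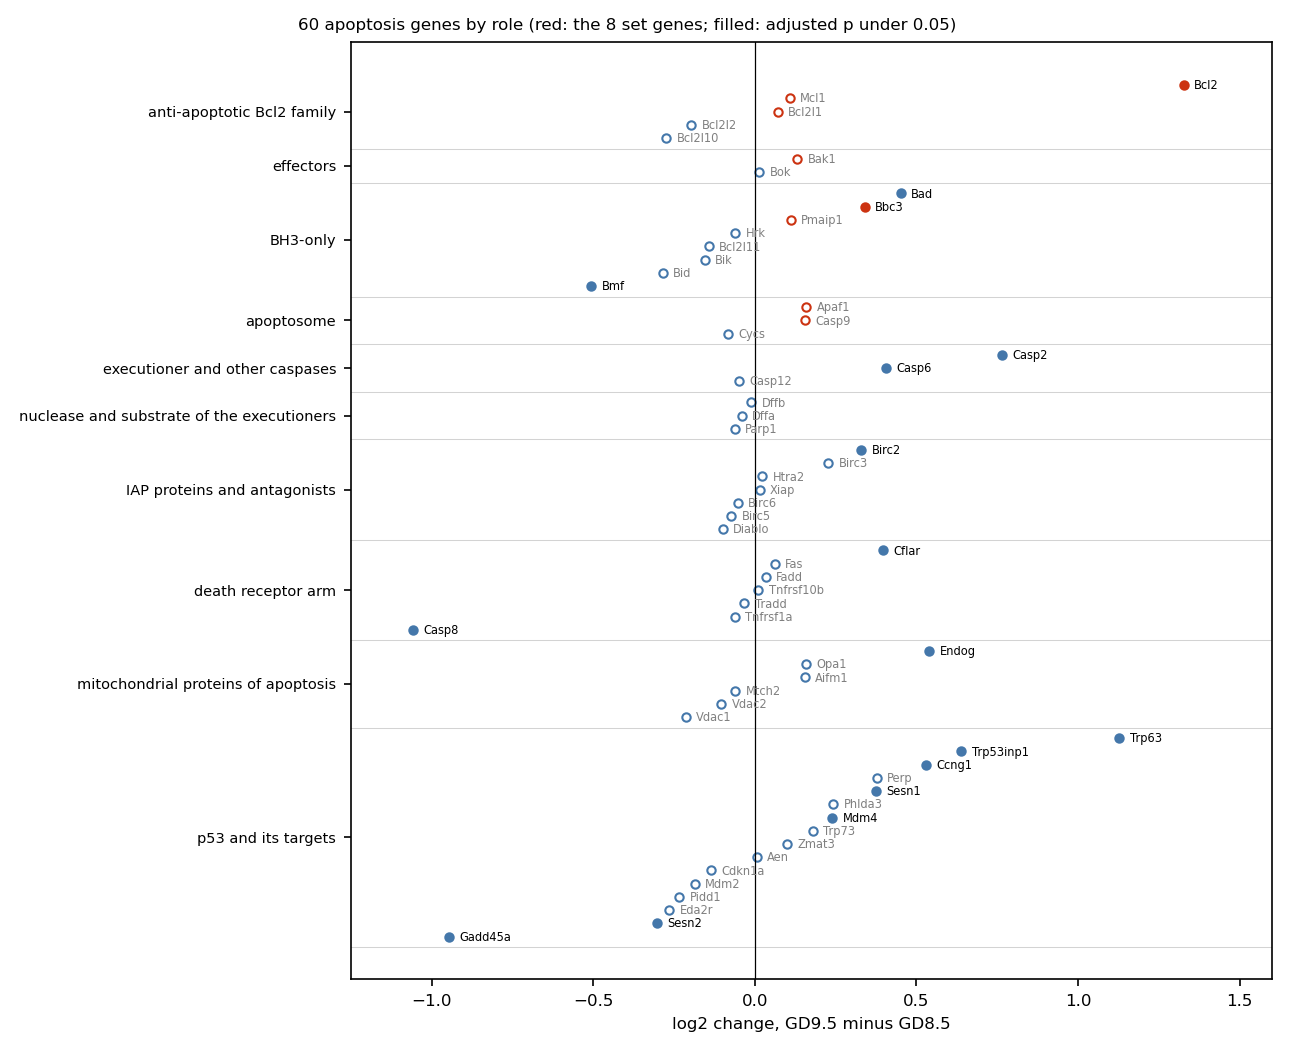
Log2 change from GD8.5 to GD9.5 of the brightest probe set of 60 apoptosis genes, grouped by role; red points are the 8 measured genes of the set, and filled points had an adjusted p under 0.05. Bcl2 is highest at 1.33, followed by Trp63 at 1.13, and Casp8 is lowest at -1.06.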

How the data were processed

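Affymetrix mouse genome arrays were hybridised with RNA from 12 samples. The authors deposited log2 signals for 10 arrays, already on 1 distribution (sorted values within 0.27 of each other), and linear intensity values for GD8.5 replicates 1 and 2 (medians 92.2 and 98.3). Per the submitters' processing notes, Affymetrix Expression Console 1.2.1, RMA and GCRMA were used; their roles are not given in the sources used here. Of 45101 probe sets, 64 controls, 932 with several genes and 9160 with none listed were left out; the platform annotation gave the gene names, with 161 of 18193 genes absent from the RefSeq gene table. The members and lists were chosen with earlier results of these data known.

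The 10 log2 arrays were fitted in R 4.3.3 by limma 3.58.1 with 1 coefficient for each stage, 7 residual and 4.37 prior degrees of freedom, and moderated tests were adjusted by Benjamini-Hochberg over 34945 probe sets. Named were all members, and from each group of the wider list up to 2 called rises and 2 called falls per comparison plus those behind counts of 5 or fewer. The fit was tested on simulated data with 200 of 34945 probe sets changed. It recovered 58% of 1.5-fold changes in the first interval (GD8.5 to GD9.0), 90% in the second and 60% over the full day. Of 1.2-fold changes it recovered 2%, 16% and 4%. In the data 10.1%, 20.4% and 23.2% of probe sets were called. The adjusted cutoff depends on that share, so these recoveries do not carry over directly to the data. No 2 arrays of a stage held the same values, with at most 154 equal among 18193 genes. The replicate number is not stated to be a litter or batch, so a replicate block was used as an alternative only. Same-numbered arrays of different stages correlated in their deviations from stage means from -0.06 to 0.12. Differently numbered arrays did so from -0.17 to 0.15. Alternatives covered scaling, arrays, probe sets, variance model, block and each array left out.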

Additional observations from a re-analysis of the deposited data

Results flagged for a closer look

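The Bcl2 probe set 1457687_at stood apart in GD9.0 replicate 1, at 4.24 against 3.92 to 3.96 in the other 3 arrays of its stage. The dimmer Bak1 probe set was low in GD9.5 replicate 4, at 1.22 against 1.43 to 1.45, under the background. Of 48 stage groups checked, these 2 were set apart, and chance sets apart about 1 group in 20.

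The second change minus the first differed from 0 in 5 Mcl1 probe sets, at 0.379, 0.487, 0.491, 0.377 and 0.352, and in Pmaip1 at 1.07. The test was a limma contrast of the stage means, in which GD9.0 enters both changes. The Mcl1 calls were fragile. That of 1416881_at was lost on leaving out any 1 of the 10 arrays, and that of 1437527_x_at on leaving out any 1 of 9. With all 12 arrays the calls of 1437527_x_at, 1416880_at and 1416881_at were lost (adjusted p from 0.0569 to 0.0868).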

How the results depend on the processing

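Of 1820 values of single member probe sets under 21 alternatives, 88 lost and 19 gained a call, and 0 called values turned sign. The brightest Bcl2 probe set kept its 3 calls in all alternatives run, over the full day from 0.44 (the mean of its probe sets) to 1.37. With all 12 arrays, put on 1 log2 distribution, 1 member in place of 6 (Bcl2) was higher in the second interval. In that setting 5 in place of 19 wider-list genes were called. Member changes that lost their call were at 0.21 to 0.52 (0.23 to 0.59 in the 10 arrays). Over all probe sets 1776 in place of 3913 were higher and 1593 in place of 3229 lower. Over the full day 1 member in place of 2 was higher under repeated quantile normalization, under an intensity trend with robust prior, and with the replicate block, Bbc3 being lost. The block also lost the second-interval call of Bak1, the full-day call of Bcl2 probe set 1440770_at and 4 Mcl1 interval differences, and no other member call, and gained the first change of Apaf1 probe set 1450223_at and the second of Bcl2 probe set 1437122_at (0.30, adjusted p = 0.0418). For the second minus the first interval, 2 members in place of 1 were higher with brighter probe sets only and with the trend, and 3 when all probe sets of each gene were averaged. The cause of these differences was not tested. Leaving out 1 array at a time gave 1 member higher and 0 to 1 lower from GD8.5 to GD9.0, 3 to 6 higher from GD9.0 to GD9.5, and 1 to 2 higher over the day; the 3 came without GD9.5 replicate 2 and the 0 without GD8.5 replicate 3, and a lone GD8.5 array is assumed to vary like the other stages. The wider list gave 5 to 8, 13 to 18 and 10 to 17 called genes.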

Other observations

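The 2 arrays deposited on a linear scale gave Bcl2 (1457687_at) 197 and 252, Pmaip1 471 and 434, and Mcl1 (1448503_at) 8655 and 7533 intensity units. Bbc3 read 140 and 86.4, Bak1 (1418991_at) 116 and 166, and Casp9 (1437537_at) 287 and 192. In Apaf1 (1452870_at) they read 683 and 666, and in Bcl2l1 (1420888_at) 539 and 508.

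Markers of macrophages, which clear dying cells, were low: 3 of 5 (Cx3cr1, Adgre1 and Ptprc) had means under the background, and the list mean was 1.56, 1.42 and 1.61 at the 3 stages.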
